A study of Mus musculus with 4 samples.

Results

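The mitotic genes examined here are 48 genes that encode G2/M cyclins, mitotic kinases, kinesins, spindle checkpoint and kinetochore proteins, condensin subunits and the proteins that end mitosis. They were taken by gene symbol from the deposited table of read counts, which held 35976 gene rows, and all 48 symbols were found. Every member was also kept by the filter on low counts, with between 224 and 19534 reads in a library, so none is missing from the comparison below.

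The tested cells were mouse E14 embryonic stem cells in which the transcript Lx8-SINE B2 was targeted with short hairpin RNA expressed from the pSuper puro plasmid. The SINE B2 part of its name refers to a short interspersed repeat. The cells they were set against were E14 cells labelled as control and wild type. The strain label was 12910la for both groups. All cells grew on gelatin in serum with LIF at 10 ng/ml and were described by the same protocol of transfection, a wait of 24 h and selection with puromycin at 1 ug/ml for 3 days. The protocol does not state which plasmid the control cells received. There were 2 libraries per group, with 18592224 and 16383323 counts for knockdown and 19867689 and 19044832 for control. Whether libraries of 1 group were grown apart is not labelled, and every p-value below therefore speaks of the spread between these 4 libraries, possibly technical. Titles of knockdown libraries carry the word batch and those of controls do not, and effects of a batch and of the hairpin cannot be told apart. The targeted transcript itself was not analysed here. Levels are given as counts-per-million (CPM) scaled by TMM, edgeR's factor for differences in library composition. Each log2 fold change is knockdown over control and is followed, after ±, by its standard error.

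The E14 label was set against marker genes. The embryonic stem cell markers Pou5f1, Sox2, Nanog, Esrrb, Zfp42 and Dppa5a were all abundant. Their summed level was 4390 and 5006 CPM in the knockdown libraries and 5870 and 5365 CPM in the controls. Of these 6, 0 were called, and 5 had log2 fold changes below 0, against 49.5% of all tested genes. At an unadjusted p of 0.05, 1 was lower, against 8.58% of all tested genes. This was Dppa5a, at 664 and 1021 CPM in the knockdown libraries and 1437 and 1446 CPM in the controls. Of 7 fibroblast markers, Lum and Fap were at 0 counts in every library. The list summed to 5.76 and 8.15 CPM in the knockdown libraries and 15.5 and 16.7 CPM in the controls. Thy1 was the largest part in every library, at 2.88 and 5.53 CPM in the knockdown libraries and 13.3 and 12.9 CPM in the controls. Col1a1 was next, at 2.41 and 1.76 CPM in the knockdown libraries and 2.17 and 3.16 CPM in the controls. The 6 primitive endoderm markers summed to 40.3 and 27.5 CPM in the knockdown libraries and 12.6 and 18.1 CPM in the controls. None of these 6 endoderm markers was called, but 4 were higher at an unadjusted p of 0.05, against 11% of all tested genes. Both knockdown libraries lay above both controls for 5 of them, against 27.3% of all tested genes, and the median log2 fold change was 1.16. The 6 trophoblast markers summed to 45.1 and 50.7 CPM in the knockdown libraries and 44.9 and 39.7 CPM in the controls, mostly from Tfap2c and Eomes. Of the 4 that were tested, 0 were called, 3 had log2 fold changes above 0, and the median was 0.60. The 1 that was higher at an unadjusted p of 0.05 was Gata3 (log2 fold change 2.64 ± 0.51, edgeR adjusted p = 0.0527). It was at 3.14 and 2.80 CPM in the knockdown libraries and 0.476 and 0.467 CPM in the controls. The part of such cells in the values of the mitotic genes was not tested.

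Mitosis begins when cyclin B bound to the kinase CDK1 is switched on by CDC25 phosphatases. Aurora and Polo kinases then build the spindle, kinesins move and depolymerise its microtubules, and kinetochores tie the microtubules to chromosomes that condensin has compacted. Until every kinetochore is attached, the spindle checkpoint keeps CDC20 from activating the anaphase promoting complex, which otherwise destroys cyclin B and securin and so frees separase to part the sister chromatids. Most of these genes are transcribed late in the cell cycle, through promoter elements named CHR and CCAAT that are bound by complexes containing MYBL2, FOXM1 and NF-Y. Mouse embryonic stem cells divide fast, and their populations are rich in cycling cells.

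Promoters are shown because the CHR and CCAAT elements are what many of these genes share apart from their function. RefSeq promoter windows of 300 bases, from 250 before to 50 after a transcription start (GRCm38.p6), were found for 41 of the 48 genes, and for 35 of these the transcription start that a window was built on lay within 100 bases of the gene's outermost annotated start. The letters TTTGAA, the core of a CHR element, were searched on both strands and occurred in a window of 29 of the 41 genes (70.7%), against 20.2% of 27025 genes with a window. CCAAT on either strand occurred in 28 of the 41 (68.3%), against 41.1% of all genes, and 24 (58.5%) held both, against 8.97%. Neither motif contains the other, though matches may share end letters, and a match is a description of the sequence, not a binding site. Below are the windows of Kif23, Bub1 and Top2a, the members with the smallest p-values, of Cdk1, the central kinase, and of Kif4, the member whose log2 fold change was nearest to 0, chosen after their values were seen. They are written from 5′ to 3′ along the gene, and capitals mark TTTGAA and CCAAT in either orientation.
Kif23, chr9:61946750-61947049, minus strand: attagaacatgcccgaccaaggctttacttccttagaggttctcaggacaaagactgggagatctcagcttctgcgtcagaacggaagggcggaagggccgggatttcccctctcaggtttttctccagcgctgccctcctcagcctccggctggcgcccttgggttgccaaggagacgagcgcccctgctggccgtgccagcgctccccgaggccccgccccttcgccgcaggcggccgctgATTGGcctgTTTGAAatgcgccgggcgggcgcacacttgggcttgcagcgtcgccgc
Bub1, chr2:127831810-127832109, minus strand: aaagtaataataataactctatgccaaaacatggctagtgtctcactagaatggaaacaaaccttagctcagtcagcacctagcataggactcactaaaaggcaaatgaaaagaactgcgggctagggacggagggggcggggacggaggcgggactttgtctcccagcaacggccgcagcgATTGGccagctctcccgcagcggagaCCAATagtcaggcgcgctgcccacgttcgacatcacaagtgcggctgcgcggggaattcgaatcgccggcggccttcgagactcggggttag
Top2a, chr11:99024140-99024439, minus strand: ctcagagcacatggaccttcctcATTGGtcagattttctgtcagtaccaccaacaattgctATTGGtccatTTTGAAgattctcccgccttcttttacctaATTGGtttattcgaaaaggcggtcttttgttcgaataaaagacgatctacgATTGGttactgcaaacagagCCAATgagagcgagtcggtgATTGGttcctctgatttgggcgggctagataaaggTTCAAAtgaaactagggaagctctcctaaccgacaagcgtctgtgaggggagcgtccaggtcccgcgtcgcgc
Cdk1, chr10:69352863-69353162, minus strand: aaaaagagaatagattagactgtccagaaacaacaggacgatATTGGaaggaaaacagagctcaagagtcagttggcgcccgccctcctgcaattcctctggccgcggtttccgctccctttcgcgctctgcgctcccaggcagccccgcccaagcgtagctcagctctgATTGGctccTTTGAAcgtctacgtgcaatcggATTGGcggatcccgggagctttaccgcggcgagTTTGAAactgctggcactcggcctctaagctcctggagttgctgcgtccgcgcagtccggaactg
Kif4, chrX:100625815-100626114, plus strand: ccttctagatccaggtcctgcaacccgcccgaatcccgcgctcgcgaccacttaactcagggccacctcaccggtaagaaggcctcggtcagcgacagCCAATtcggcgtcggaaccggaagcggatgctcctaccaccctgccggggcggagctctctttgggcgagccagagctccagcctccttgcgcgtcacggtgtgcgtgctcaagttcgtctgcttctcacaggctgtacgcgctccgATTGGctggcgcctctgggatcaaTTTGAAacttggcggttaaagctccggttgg
The Kif23 window held 1 TTTGAA and 1 CCAAT, that of Top2a 2 and 6, that of Cdk1 2 and 3, and that of Kif4 1 and 2. The Bub1 window held 2 CCAAT and 0 TTTGAA. The median log2 fold change was -0.27 for the 29 genes with TTTGAA, which ranged from -0.80 to 0.09, and -0.26 for the 12 without it, which ranged from -1.10 to 0.02. The genes at the ends of the latter range, Pttg1 and Cdc25b, are among the 6 whose window was not built within 100 bases of the outermost annotated start. Sequence at their outermost starts was therefore not searched in full.

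The only comparison in the design set knockdown against control cells. None of the 48 mitotic genes was called in either direction: with edgeR's quasi-likelihood test, 0 were higher and 0 lower at a Benjamini-Hochberg adjusted p of 0.05 over all 16209 tested genes, where 0.876% of all genes were called higher and 0.555% lower. The smallest adjusted p among them was 0.0698 and the largest 0.982. At an unadjusted p of 0.05, 9 of the 48 were lower (18.8%) and 0 higher, against 8.58% and 11% of all tested genes. DESeq2 called 4 lower, Bub1, Kif23, Pttg1 and Top2a (8.33% of the members, against 3.02% of all genes), the edgeR likelihood ratio test called all of these but Pttg1 (3 genes, 6.25%, against 3.17%), and limma-voom called 0 (against 0.561%). With no filter beyond 1 count edgeR called the same 4 as DESeq2 and Ncapg (5 genes, 10.4%, against 2.72%), and with the replicate number as a block 0 (against 1.41%). None of the 48 was called higher, where DESeq2 called 3.81% and the likelihood ratio test 4.91% of all genes higher.

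Although no gene passed, the values leaned to 1 side. The log2 fold change was below 0 for 42 of the 48 genes (87.5%), against 49.5% of all tested genes, and the median was -0.25, against 0.01 over all tested genes. Both knockdown libraries lay below both controls in 25 of the 48 (52.1%), against 24.6% of all tested genes, and above both controls in 1, Incenp (2.08%, against 27.3%). The libraries of the groups overlapped in the other 22. Summed over the 48 genes, the level was 7440 and 7478 CPM in the knockdown libraries and 8358 and 9607 CPM in the controls. For 41 of the 48 genes the 95% interval of the log2 fold change stayed within 1 in either direction, a change of less than 2-fold, and for the other 7 it reached below -1. It reached above 1 for 0 genes. In bulk RNA, fewer cells in G2 or mitosis and less of a transcript per cell cannot be told apart.

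**Figure D1:**
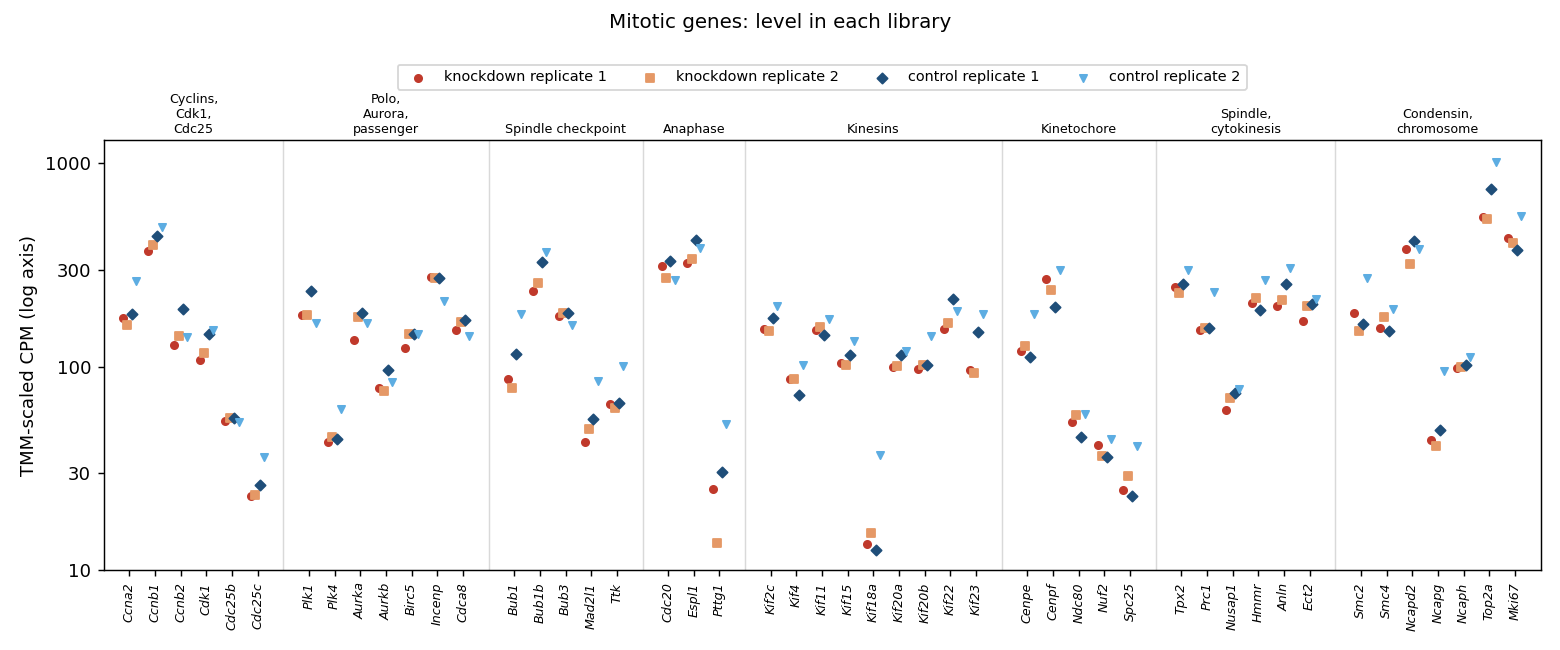
Level of each mitotic gene in each library, as TMM-scaled CPM on a log axis, with genes grouped by function and 1 point per library. The points of the knockdown libraries lie close together for most genes (not for Pttg1), and control replicate 2 is the highest point for 36 of the 48 genes.

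The genes that drive entry into mitosis had a median log2 fold change of -0.35, with 5 of 6 below 0. Cdk1, the kinase that all of them act on or with (chromosome 10 from 69335146 to 69352912, mm10), was at 108 and 116 CPM in the knockdown libraries and at 144 and 152 CPM in the controls. The groups did not overlap, and the gap between them was larger than the gap within either, but the call failed: at -0.40 ± 0.17 on the log2 scale, with a 95% interval of -0.79 to -0.02, the edgeR adjusted p was 0.235. Ccnb1, the B-type cyclin that activates it (chromosome 13 from 100778739 to 100786486), was at 369 and 397 CPM in the knockdown libraries and 441 and 485 CPM in the controls, a log2 fold change of -0.28. Ccnb2, the other mitotic B-type cyclin, was at 127 and 142 CPM in the knockdown libraries and 193 and 139.8 CPM in the controls, so that control replicate 2 lay between the knockdown libraries. Both B-type cyclins have a processed pseudogene in GENCODE M21, Ccnb1-ps and Ccnb2-ps, and reads shared with these copies would make their counts uncertain.

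Ccna2, the cyclin of S phase and early mitosis (chromosome 3 from 36564865 to 36573038), was at 174 and 159.9 CPM in the knockdown libraries and 181 and 265 CPM in the controls. Its log2 fold change of -0.42 ± 0.21 (edgeR adjusted p = 0.328) came mostly from control replicate 2, since it was -0.17 without that library. The phosphatase gene Cdc25c, whose product removes the inhibitory phosphates from CDK1, showed the same layout at 23.0 and 23.4 CPM in the knockdown libraries and 26.2 and 36.1 CPM in the controls (log2 fold change -0.42 ± 0.24, edgeR adjusted p = 0.377). Its relative Cdc25b was at 54.2 and 56.1 CPM in the knockdown libraries and 55.7 and 53.3 CPM in the controls. All 4 libraries of Cdc25b lay within 1.05-fold of each other, and the 95% interval of its log2 fold change ran from -0.40 to 0.43.

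**Figure D2:**
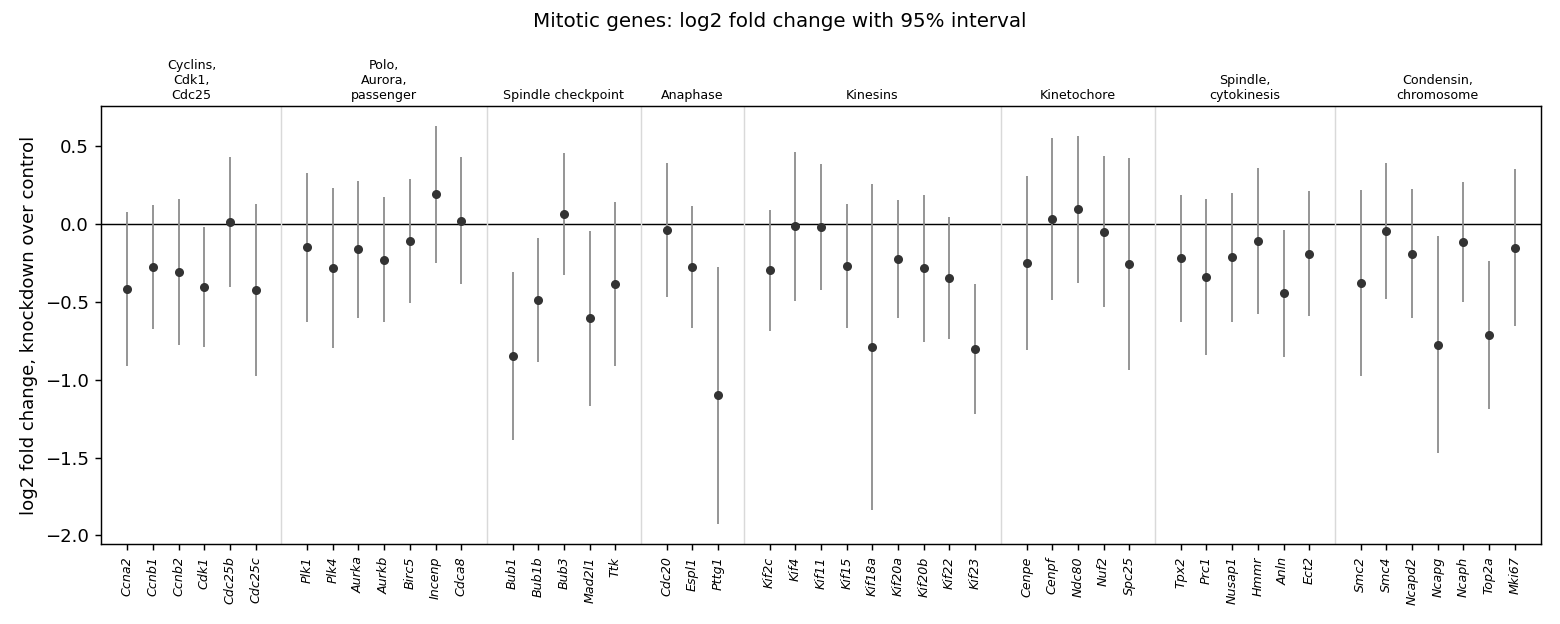
Log2 fold change of each mitotic gene, knockdown over control, with points for the edgeR estimate and bars for its 95% interval. Most points lie below 0, and the bars of 9 genes (18.8%), among them Kif23, Bub1, Top2a and Pttg1, do not cross 0. A bar that does not cross 0 is the same as an edgeR unadjusted p below 0.05. In either direction, 19.6% of all tested genes reached it.

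Polo and Aurora kinases and the chromosomal passenger complex had the group median nearest to 0 apart from kinetochore genes, -0.15 on the log2 scale for 7 genes. At an unadjusted p of 0.05, 0 of the 7 were higher and 0 lower, against 11% and 8.58% of all tested genes. Plk1, the Polo kinase of mitotic entry and spindle assembly, was at 179.9 and 179 CPM in the knockdown libraries and at 235 and 163 CPM in the controls, which lay on either side. Plk4, which starts the duplication of centrioles, was at 42.3 and 44.9 CPM in the knockdown libraries and 44.0 and 62.1 CPM in the controls (log2 fold change -0.28 ± 0.22, edgeR adjusted p = 0.529). Aurka, the Aurora kinase of the spindle poles, was at 135 and 175 CPM in the knockdown libraries and 183 and 164 CPM in the controls.

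The passenger complex joins the kinase AURKB to INCENP, survivin (Birc5) and borealin (Cdca8), and corrects faulty attachments of kinetochores. Its 4 genes had log2 fold changes between -0.23 and 0.19. Aurkb was at 78.3 and 75.5 CPM in the knockdown libraries and 95.8 and 84.2 CPM in the controls (log2 fold change -0.23 ± 0.17, edgeR adjusted p = 0.518). Incenp, the scaffold of the complex, was at 277 and 274 CPM in the knockdown libraries and 273 and 209 CPM in the controls (log2 fold change 0.19 ± 0.19, edgeR adjusted p = 0.626). It was the gene with the highest log2 fold change of the 48, and without control replicate 2 its value was -0.04. Birc5 at 124 and 145 CPM in the knockdown libraries and 144 and 145 CPM in the controls, and Cdca8 at 151 and 165 CPM in the knockdown libraries and 169 and 142 CPM in the controls, overlapped between the groups.

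Genes of the spindle checkpoint had the lowest median of the 8 functional groups, -0.49 over 5 genes, and 3 of the 5 were lower at an unadjusted p under 0.05, against 8.58% of all tested genes. Bub1, the kinase that recruits checkpoint proteins to kinetochores (chromosome 2 from 127800197 to 127831859), was at 86.9 and 78.1 CPM in the knockdown libraries and 116 and 181 CPM in the controls. All of its knockdown values were below its control values, and the mean was 82.5 ± 6.17 CPM in knockdown cells and 148 ± 45.9 CPM in control cells (SD, n = 2 each), 1.80-fold lower. At -0.84 ± 0.23 on the log2 scale it was not called (edgeR adjusted p = 0.107). DESeq2 called it lower with an adjusted p of 0.0201, and edgeR did so without control replicate 1, at -1.13 (adjusted p = 0.0218), while without control replicate 2 the value was -0.54.

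Bub1b, which encodes BUBR1, a part of the inhibitor that holds CDC20 (chromosome 2 from 118598202 to 118641592), was at 236 and 259 CPM in the knockdown libraries and 326 and 367 CPM in the controls. The gap between its groups exceeded the gaps within them (log2 fold change -0.49 ± 0.17, edgeR adjusted p = 0.178). Mad2l1, which encodes MAD2 of the same inhibitor, was at 42.6 and 49.3 CPM in the knockdown libraries and 55.0 and 84.7 CPM in the controls (log2 fold change -0.60 ± 0.24, edgeR adjusted p = 0.225). The controls of Mad2l1 differed more from each other than the nearer control did from the knockdown libraries. The checkpoint kinase gene Ttk, also named Mps1, was at 65.8 and 62.6 CPM in the knockdown libraries and 66.6 and 101 CPM in the controls, so control replicate 1 lay with the knockdown libraries. Bub3, the WD repeat protein that carries BUB1 and BUBR1 to kinetochores, stood apart from the other 4 at 177 and 183 CPM in the knockdown libraries and 184 and 159 CPM in the controls, with a log2 fold change of 0.07 and a 95% interval of -0.33 to 0.46.

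Securin had the lowest log2 fold change of the 48 genes. Pttg1, which encodes securin, the inhibitor of separase (chromosome 11 from 43420244 to 43427463), was at 24.9 and 13.6 CPM in the knockdown libraries and 30.4 and 52.3 CPM in the controls. The groups did not overlap, but the libraries spread 3.84-fold in all, the widest of the 48 genes, and the libraries of each group differed widely. On the log2 scale it stood at -1.10 ± 0.36, with a 95% interval of -1.93 to -0.27 (edgeR adjusted p = 0.148). It was -1.60 without knockdown replicate 1, where it was called (adjusted p = 0.0447), and -0.73 without knockdown replicate 2, where it was not (adjusted p = 0.555). It was -1.44 without control replicate 1 and -0.71 without control replicate 2.

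Separase itself, Espl1, which cuts cohesin, was at 324 and 340.4 CPM in the knockdown libraries and 422 and 382 CPM in the controls, without overlap (log2 fold change -0.28 ± 0.17, edgeR adjusted p = 0.418). Cdc20, the activator of the anaphase promoting complex, was at 311 and 274 CPM in the knockdown libraries and 332 and 268 CPM in the controls (log2 fold change -0.04 ± 0.19, edgeR adjusted p = 0.94). Per kilobase of annotated exon, a scale on which genes can be set beside each other, Cdc20 had the highest level of the 48 genes, at 157 CPM per kilobase in knockdown cells and 161 in control cells. Exons of Cdc20 overlap exons of Elovl1.

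All 9 kinesin genes had log2 fold changes below 0, with a median of -0.28 and a range of -0.80 to -0.01, and 1 of them, Kif23, had an unadjusted p under 0.05, a share near the 8.58% of all tested genes that were lower at that threshold. Kif23, which encodes MKLP1, a motor of the central spindle needed for cytokinesis (chromosome 9 from 61917277 to 61946810), was at 96.3 and 93.0 CPM in the knockdown libraries and 148 and 182 CPM in the controls. It averaged 94.7 ± 2.29 CPM in knockdown cells and 165 ± 24.1 CPM in control cells (SD, n = 2 each), 1.74-fold lower, and the lower control was well above both knockdown libraries. The log2 difference was -0.80 ± 0.18, with a 95% interval of -1.22 to -0.38, and the edgeR adjusted p of 0.0698 was the smallest of the 48 genes. Over the fits that left out 1 library the value stayed between -0.95 and -0.69. DESeq2 (adjusted p = 0.0053) and the likelihood ratio test (adjusted p = 0.0094) called it lower. Limma-voom (adjusted p = 0.080) and edgeR with the replicate number as a block (adjusted p = 0.0525) did not. Its partner in the centralspindlin complex, Racgap1, is not among the 48 and was at 143 and 168 CPM in the knockdown libraries and 177 and 154 CPM in the controls, a log2 fold change of -0.09.

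Kif22, a motor that pushes chromosome arms outward, was at 154 and 164 CPM in the knockdown libraries and 216 and 188 CPM in the controls (log2 fold change -0.35 ± 0.17, edgeR adjusted p = 0.31). Kif2c, which encodes MCAK, a kinesin that depolymerises microtubules, was at 152 and 149.5 CPM in the knockdown libraries and 173 and 198 CPM in the controls (log2 fold change -0.30 ± 0.17, edgeR adjusted p = 0.378). In both genes the groups were apart by less than 1.5-fold between any of their libraries. Kif20a, a motor of late cytokinesis, was at 99.0 and 101 CPM in the knockdown libraries and 114 and 119 CPM in the controls, and Kif15, a spindle motor that assists Kif11, was at 104 and 102 CPM in the knockdown libraries and 115 and 133 CPM in the controls. The groups were apart for these genes as well, by small gaps.

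Kif11, the motor known as Eg5 that pushes spindle poles apart, was at 152 and 157 CPM in the knockdown libraries and 143 and 171 CPM in the controls, and the 95% interval of its log2 fold change of -0.02 ran from -0.42 to 0.39. Kif4, a chromosome-bound motor on chromosome X, was at 87.0 and 86.5 CPM in the knockdown libraries and 72.7 and 102 CPM in the controls, so its knockdown libraries lay between its controls. Kif20b was at 97.7 and 102 CPM in the knockdown libraries and 102 and 142 CPM in the controls. Kif18a, the motor that limits the swing of aligned chromosomes, was the least abundant of the 48 per kilobase and depended on 1 control more than any other. It was at 13.3 and 15.2 CPM in the knockdown libraries and 12.5 and 36.8 CPM in the controls. Its log2 fold change of -0.79 was -1.37 without control replicate 1 (edgeR adjusted p = 0.0371) and 0.14 without control replicate 2. Kif4 and Kif22 each have a processed pseudogene in GENCODE M21. Exons of Kif18a, Kif20a and Kif4 overlap those of Mettl15, Cdc23 and Pdzd11, and reads of such pairs cannot be told apart here where they share bases.

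Kinetochore genes overlapped between the groups in 5 of 5 cases, as did 7797 of all 16209 tested genes. Their median log2 fold change was -0.05. Cenpe, the kinetochore motor that brings chromosomes to the spindle equator, was at 119 and 127 CPM in the knockdown libraries and 111 and 182 CPM in the controls (log2 fold change -0.25 ± 0.24, edgeR adjusted p = 0.614). Cenpf, a large protein of the outer kinetochore, was at 269 and 237 CPM in the knockdown libraries and 196 and 298 CPM in the controls. In both genes the controls enclosed the knockdown libraries.

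The NDC80 complex is the main link from kinetochore to microtubule, and the 3 subunits in the set were close to 0 or had wide intervals. Ndc80 was at 53.4 and 57.5 CPM in the knockdown libraries and 45.1 and 58.7 CPM in the controls (log2 fold change 0.09 ± 0.21, edgeR adjusted p = 0.842). Nuf2 was at 40.9 and 36.4 CPM in the knockdown libraries and 35.9 and 44.0 CPM in the controls. Spc25 was at 24.6 and 28.9 CPM in the knockdown libraries and 23.1 and 40.8 CPM in the controls (log2 fold change -0.25 ± 0.30, edgeR adjusted p = 0.685). In all 3 genes control replicate 1 was the lowest library and control replicate 2 the highest.

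Of the 6 genes for spindle assembly and cytokinesis, all had log2 fold changes below 0 (median -0.22), against 49.5% of all tested genes, and 5 had both knockdown libraries below both controls, against 24.6%. Anln, which encodes anillin, the scaffold of the contractile ring (chromosome 9 from 22331214 to 22389211), was at 199 and 213 CPM in the knockdown libraries and 255 and 305 CPM in the controls. At -0.44 ± 0.18 on the log2 scale it was not called (edgeR adjusted p = 0.222). Prc1, which bundles the microtubules of the central spindle, was at 151 and 155 CPM in the knockdown libraries and 155 and 232 CPM in the controls, where only control replicate 2 stood away from the rest (log2 fold change -0.34 ± 0.22, edgeR adjusted p = 0.431). Tpx2, the activator of Aurora A, was at 247 and 229.5 CPM in the knockdown libraries and 255 and 299.9 CPM in the controls (log2 fold change -0.22 ± 0.18, edgeR adjusted p = 0.534). Ect2, the exchange factor that activates RHOA for cytokinesis, was at 169 and 199 CPM in the knockdown libraries and 204 and 215 CPM in the controls, and Nusap1, a spindle microtubule protein, at 61.3 and 69.7 CPM in the knockdown libraries and 74.2 and 77.5 CPM in the controls. Hmmr, the spindle pole protein also known as a hyaluronan receptor, was at 205 and 219 CPM in the knockdown libraries and 191 and 266 CPM in the controls and was the 1 gene of the 6 whose groups overlapped.

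Top2a stood out among the chromosome genes. Topoisomerase II alpha, which it encodes, untangles sister chromatids (chromosome 11 from 98992947 to 99024199). It was at 546 and 530.2 CPM in the knockdown libraries and 747 and 1013 CPM in the controls, a mean of 538 ± 11.0 CPM in knockdown cells and 880.0 ± 189 CPM in control cells (SD, n = 2 each). Its knockdown libraries were nearly equal and well below both controls, 1.64-fold lower in the fit (log2 fold change -0.71 ± 0.21, edgeR adjusted p = 0.118). DESeq2 (adjusted p = 0.0201) and edgeR without control replicate 1, at -0.92 (adjusted p = 0.0302), called it lower. Without control replicate 2 the value was -0.52. Mki67, the proliferation marker that coats mitotic chromosomes, was at 429.7 and 407 CPM in the knockdown libraries and 375 and 554 CPM in the controls, with a log2 fold change of -0.15 and a 95% interval of -0.66 to 0.36.

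The subunits of condensin I, the complex that compacts mitotic chromosomes, differed among themselves, with log2 fold changes from -0.77 to -0.04. Ncapg, one of its HEAT repeat subunits, was at 43.6 and 40.6 CPM in the knockdown libraries and 48.7 and 95.4 CPM in the controls. Control replicate 1 of Ncapg was near the knockdown libraries, and its log2 fold change of -0.77 ± 0.30 (edgeR adjusted p = 0.213) was -1.18 without that library (adjusted p = 0.0237) and -0.26 without control replicate 2. Smc2 was at 184 and 150.1 CPM in the knockdown libraries and 162 and 273 CPM in the controls (log2 fold change -0.38 ± 0.26, edgeR adjusted p = 0.46). Its partner ATPase subunit Smc4 was at 155 and 176 CPM in the knockdown libraries and 150.1 and 191 CPM in the controls. Ncapd2 was at 379.8 and 319.8 CPM in the knockdown libraries and 417 and 380.4 CPM in the controls, so that the groups all but touched. Ncaph was at 98.2 and 99.2 CPM in the knockdown libraries and 102 and 111 CPM in the controls, a small gap. Exons of 15 of the 48 genes overlap those of another gene, among them Top2a, Ncapg, Ncapd2, Prc1, Nusap1 and Ccna2, and the strand setting of the counting is not stated in the labels.

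The controls differed from each other more than the knockdown libraries did, and mostly in the same direction. Control replicate 2 was above control replicate 1 in 36 of the 48 genes (75%), against 50.1% of all tested genes, and in 36 (75%) it was the highest of the 4 libraries, against 28.1% of all tested genes. Over the 48 genes, the median log2 ratio of control replicate 2 to control replicate 1 was 0.26, with a range of -0.52 for Plk1 to 1.55 for Kif18a, and over all tested genes it was 0.0016. The median size of the log2 gap between libraries of a group was 0.10 for the knockdown libraries and 0.33 for the controls, and the control gap was the larger in 41 of the 48 genes. The log2 fold change was smaller than the larger of its own within-group gaps in 33 of the 48 genes. In the other 15, among them Kif23, Bub1, Top2a, Pttg1, Bub1b, Anln and Cdk1, it was larger. These counts of gaps were not made over all tested genes, so they do not set the mitotic genes apart from the rest.

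**Figure D3:**
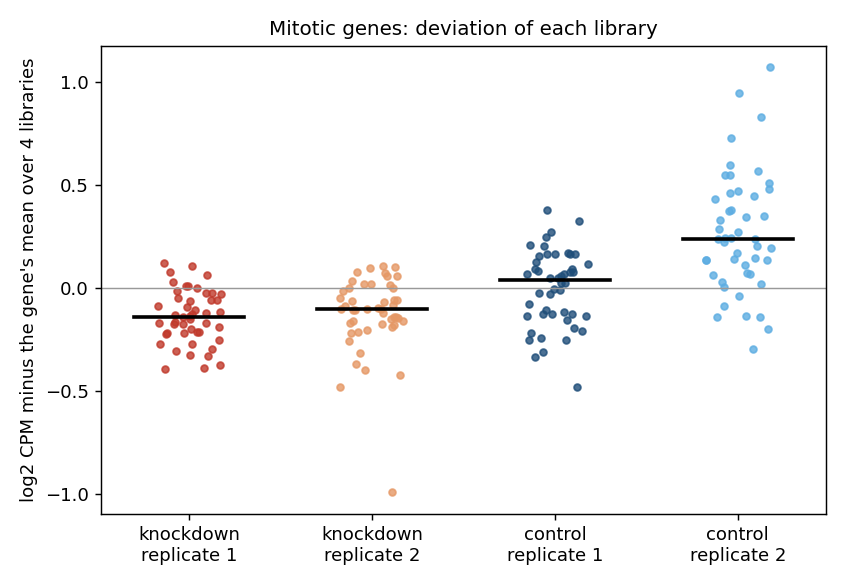
Log2 CPM of each mitotic gene in each library minus the mean of that gene over the 4 libraries, with 1 point per gene and a bar at the median. The medians are -0.14 and -0.10 in the knockdown libraries, 0.04 in control replicate 1 and 0.24 in control replicate 2.

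The lean toward lower values was present against either control but was larger against replicate 2. Without control replicate 1, the median log2 fold change of the 48 genes was -0.33, 42 were below 0 and edgeR called 5 lower (Bub1, Kif18a, Kif23, Ncapg and Top2a, 10.4% of the members, against 1.15% of all tested genes). Without control replicate 2 the median was -0.19, 37 were below 0 and 0 were called (against 1.1% of all tested genes called lower). In these fits the lone control was assumed to vary like the knockdown libraries. Without knockdown replicate 1 the median was -0.24 with Pttg1 called (2.08%, against 0.65%), and without knockdown replicate 2 it was -0.30 with 0 called (against 0.265%).

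**Figure D4:**
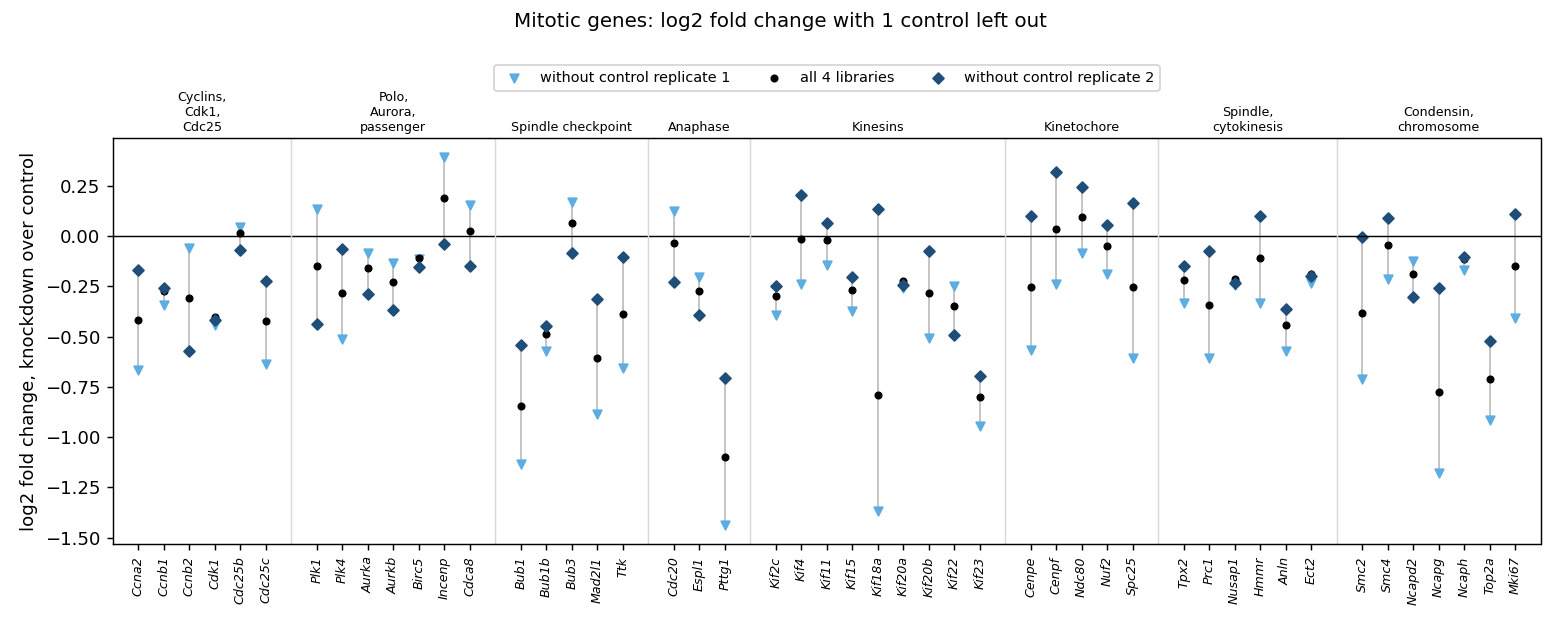
Log2 fold change of each mitotic gene, knockdown over control, with all 4 libraries and with 1 control left out, and a line joining the values of a gene. For Bub1, Kif23, Top2a, Pttg1 and Ncapg all values are below 0, while Cenpe, Spc25, Mki67 and Kif18a cross 0 when control replicate 2 is left out.

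The difference between the controls moved with the length of a gene's annotated exons. Among 7887 tested genes with an exon length in GENCODE M21 and at least 224 reads in every library, the median log2 ratio of control replicate 2 to control replicate 1 was -0.20 in the shortest of 4 equal classes (up to 3149 bases of annotated exon) and 0.04 in the longest (from 7454 bases). For the mitotic genes it was -0.25 over 6 genes in that shortest class, 0.15 over 16 in the next, 0.37 over 14 in the third and 0.50 over 12 in the longest, above the value of all genes in all but the shortest class. Across the 48 genes, Spearman's rho was 0.44 between exon length and this ratio and -0.09 between exon length and the log2 fold change of knockdown over control. Over the 7887 genes, the median log2 fold change of knockdown over control was -0.11 in the shortest class and 0.07 in the longest. For the mitotic genes in these classes it was -0.19 and -0.31. These are descriptions across genes that share the same 4 libraries. The part of length, or of RNA quality, in the difference between the controls or in the log2 fold changes was not tested.

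**Figure D5:**
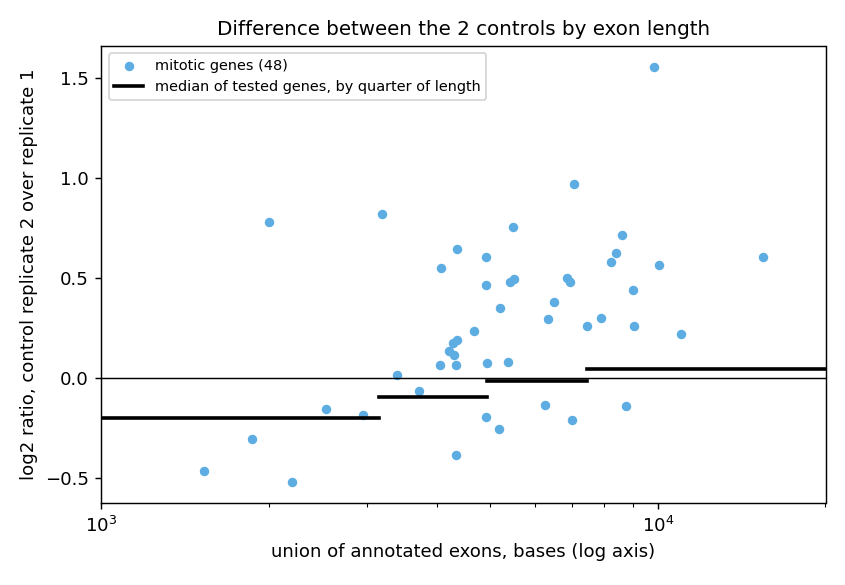
Log2 ratio of control replicate 2 to control replicate 1 for the 48 mitotic genes against the length of their annotated exons (log axis), with bars at the median of the 7887 tested genes in each of 4 equal classes of length. Most points outside the shortest class lie above the bars, up to 1.55 for Kif18a.

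Other mitotic genes were taken from 5 lists for further kinases and phosphatases, the anaphase promoting complex, kinetochore and checkpoint proteins, spindle and cytokinesis proteins, and condensin II with cohesin. Of these 72 genes, all tested, 0 were called in either direction by edgeR, against 0.876% of all tested genes called higher and 0.555% lower. Log2 fold changes were below 0 for 45, against 49.5% of all tested genes, with a median of -0.11. Both knockdown libraries lay below both controls in 19 (24.6% of all tested genes) and above both in 11 (27.3% of all tested genes). At an unadjusted p of 0.05, 4 were higher and 5 lower, shares below the 11% and 8.58% of all tested genes, and these 9 are given as values. Kif18b, a plus-end kinesin, was at 173 and 175 CPM in the knockdown libraries and 101 and 109.6 CPM in the controls (log2 fold change 0.72 ± 0.17, edgeR adjusted p = 0.0737). Zwint, a kinetochore protein, was at 213 and 289 CPM in the knockdown libraries and 123 and 154 CPM in the controls (log2 fold change 0.86 ± 0.21, edgeR adjusted p = 0.0867). Cdc23, a subunit of the anaphase promoting complex, and Ckap2, a spindle protein, had log2 fold changes of 0.64 and 0.64. In these 4 genes both knockdown libraries lay above both controls. The 5 with a lower value at that threshold were Pimreg (Fam64a in the table) at -0.83, Kntc1, a checkpoint protein of the RZZ complex, at -0.65, Cep55, which acts in abscission, at -0.58, Zwilch, also of the RZZ complex, at -0.49, and Ncaph2 of condensin II at -0.42.

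Of 20 genes for transcription factors and cell cycle regulators that act on mitotic genes, 0 were called, with 2 higher and 1 lower at an unadjusted p of 0.05, shares that do not exceed the 11% and 8.58% of all tested genes. The activators Foxm1 and Mybl2 had log2 fold changes of 0.15 and 0.09, with 95% intervals of -0.24 to 0.53 and of -0.41 to 0.58. Cdkn1a, the p53 target that encodes the kinase inhibitor p21, was at 122 and 205 CPM in the knockdown libraries and 69.7 and 46.4 CPM in the controls, and at a log2 fold change of 1.49 ± 0.29 it missed the threshold (edgeR adjusted p = 0.0543). Rbl2, which encodes p130, a subunit of the DREAM complex that represses mitotic genes in resting cells, was at 43.5 and 43.8 CPM in the knockdown libraries and 26.9 and 22.3 CPM in the controls (log2 fold change 0.83 ± 0.21, edgeR adjusted p = 0.0904). Its relative Rbl1, which encodes p107, was at 21.5 and 21.2 CPM in the knockdown libraries and 32.0 and 31.2 CPM in the controls (log2 fold change -0.57 ± 0.21, edgeR adjusted p = 0.198). The groups did not overlap in any of these 3 genes, and their relation to the values of the mitotic genes was not tested.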

How the data were processed

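RNA from 2 knockdown and 2 control libraries was measured by mRNA sequencing. The authors deposited raw counts of reads per gene symbol. Cutadapt, HISAT2, featureCounts and the build mm10 are named per the submitters' processing notes. Their versions, annotation, and settings for strand and multiply mapped reads are not stated in those notes.

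Of 36068 rows, 92 spike-in rows with 0 counts were left out. Another 27 rows, whose symbols a spreadsheet had turned into dates, held 0.151% to 0.177% of a library and stayed in the fit unnamed. With filterByExpr, 16209 genes were kept. Libraries were scaled by TMM and compared with edgeR 4.0.16 (R 4.3.3), quasi-likelihood F-test, group as the only term, with Benjamini-Hochberg adjustment over all tested genes. Standard errors were obtained as the absolute log2 fold change over the root of F. Other scalings, filters and tests (DESeq2 1.42.0, limma 3.58.1), a replicate block and fits without each library were tried.

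Exon length is the union of exons in GENCODE M21, and positions are from RefSeq GRCm38.p6, the same build as mm10. All 48 members are described, with full statistics for the 3 with the smallest p in each functional group. Members and lists were chosen with earlier results of these data known. Genes outside that rule that are singled out were chosen after their values were seen.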

Additional observations from a re-analysis of the deposited data

How the results depend on the processing

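No call was made for any of the 48 genes in the fit with all libraries, and the number of genes called over the whole table, 232 there, depended on the test. It was 1717 with no filter beyond 1 count, 1107 with DESeq2, 1310 with the likelihood ratio test and 656 with the replicate number as a block, and it ranged from 153 to 587 when 1 library was left out. The number of mitotic genes called lower was 5 with no filter beyond 1 count, 4 with DESeq2 and 3 with the likelihood ratio test, and ranged from 0 to 5 when 1 library was left out. The cause was not tested. The number called lower was 0 under the other 3 scalings, the CPM filter, limma-voom, the block and without the 50 most abundant genes. In these fits the share of all tested genes called lower was itself small, from 0.352% (library size only) to 1.41% (the block). No mitotic gene was called higher under any of the 14 alternatives. The share of all tested genes called higher ranged there from 0.635% (without knockdown replicate 2) to 4.91% (likelihood ratio test). The median log2 fold change of the 48 genes ranged from -0.33 to -0.19 over these alternatives. Libraries share a replicate number across groups, but nothing in the labels makes the number a batch, and the deviations of same-numbered libraries correlated at -0.05. With that replicate block 0 of the mitotic genes were called.

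The sign of the log2 fold change was the same under all 14 alternatives for 30 of the 48 genes and turned at least once for 18, never with a call. With other scalings or tests, Cdc25b was -0.0058 with RLE factors, -0.0059 with DESeq2 and -0.016 with upper quartile scaling, and Cdca8 was -0.00074, -0.00074 and -0.0085 in the same order. Cenpf was -0.0027 with upper quartile scaling. With library size only, Cdc20 was 0.019, Kif4 0.029 and Kif11 0.027, and Kif4 was 0.0082 with limma-voom and 0.0082 with the replicate block. When 1 library was left out, the values that turned sign ranged from -0.067 to 0.047 for Cdc25b, -0.44 to 0.13 for Plk1, -0.36 to 0.011 for Aurka, -0.040 to 0.39 for Incenp, -0.15 to 0.15 for Cdca8, -0.087 to 0.17 for Bub3 and -0.23 to 0.12 for Cdc20. The ranges were -0.24 to 0.20 for Kif4, -0.14 to 0.067 for Kif11, -1.37 to 0.14 for Kif18a, -0.57 to 0.10 for Cenpe, -0.24 to 0.32 for Cenpf, -0.085 to 0.25 for Ndc80, -0.19 to 0.056 for Nuf2 and -0.61 to 0.16 for Spc25. They were -0.33 to 0.10 for Hmmr, -0.21 to 0.090 for Smc4 and -0.41 to 0.11 for Mki67.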

Other observations

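DNA replication genes, which act in S phase, can be set beside the mitotic genes. Of 33 tested, 0 were called by edgeR, 13 were lower and 0 higher at an unadjusted p of 0.05, against 8.58% and 11% of all tested genes. Log2 fold changes were below 0 for 31, against 49.5% of all tested genes, and their median was -0.36, against -0.25 for the 48 mitotic genes. Pcna, the sliding clamp of replication, was at 250.5 and 211 CPM in the knockdown libraries and 398 and 422 CPM in the controls (log2 fold change -0.83 ± 0.18, edgeR adjusted p = 0.0645). The library that was highest differed between the lists: it was control replicate 1 in 23 of the 33 replication genes and 10 of the 48 mitotic genes, and control replicate 2 in 9 and 36. Whether the lists differ was not tested.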
